A study of Mus musculus with 6 samples.

Results

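The genes described here encode the collagens, laminins and integrins, together with Olfml3, Fn1, Tnc, Tnr, Sparc, Thbs1 and Thbs2, in mouse oligodendrocyte precursor cells with and without knockdown of Chd7. They were taken from the probe annotation by symbol: Col, a number, a and a number; Lam, a to c and a number; or Itg, a or b and a number or letter. Symbols with a number and a letter, Itga2b and Itgb2l, were counted as integrins. This gave 86 genes on 98 probes, out of 19321 genes on an array of 23473 gene probes: 43 collagen, 10 laminin and 26 integrin genes and the 7 named matrix genes. All 86 matched a RefSeq entry by Entrez ID.

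The cells came from forebrains of Jcl:ICR mouse embryos at E15.5, and both groups were kept in the mitogens FGF2 and PDGF-AA. The 3 control samples carried a control retrovirus and the 3 knockdown samples a retrovirus against Chd7, a chromatin remodeller, and RNA was taken 3 days after infection. Each sample was read on its own one-colour array. The knockdown sequence, the insert of the control virus and the share of cells infected are not given in the sources used here. The labels do not say whether replicates are separate cultures, and the p-values then cover only the spread among these 6 arrays, which may be technical.

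Collagens are triple-helical proteins that form fibrils or sheets, and laminins are heterotrimers of an alpha, a beta and a gamma chain that build the basement membrane. Integrins are alpha-beta heterodimers in the plasma membrane that bind these proteins outside the cell and, through talin, kindlin and vinculin, the actin cytoskeleton inside. In the oligodendrocyte lineage, laminin and its receptor alpha6-beta1 are known for roles in survival and process outgrowth, and alphav integrins for binding vitronectin, fibronectin and tenascin.

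Intensities are log2 values after background correction and quantile normalization, differences are knockdown minus control with their standard error (SE), and adjusted p-values come from limma with Benjamini-Hochberg correction over 17390 tested genes. A gene was tested if a probe exceeded the mean of blank spots plus 2 SD on 3 or more arrays, and was called changed at an adjusted p below 0.05. Over all arrays the median raw signal was 83.4 to 89.4 and the mean of the blank spots 58.9 to 61.9. The Chd7 probe fell from 9.37 ± 0.15 (SD, n = 3) to 8.49 ± 0.0536 (SD, n = 3), a difference of -0.88 (SE 0.0855, adjusted p = 0.00112), and the groups did not overlap. A second Chd7 probe read -0.48 (adjusted p = 0.00411 over all probes). In the knockdown 5.15% of all tested genes were called lower, and 5 of the 7 precursor markers tested were. All 7 markers lay above the limit on all 6 arrays. Their summed normalized intensity, on a linear scale, was 12625 to 14910 in control and 9713 to 11010 in knockdown samples. In bulk RNA, fewer cells of a type and less RNA per cell cannot be told apart.

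Of the 86 genes, 80 passed the filter on dim probes. Itga4, Itgam, Itgb6, Col19a1, Col6a6 and Thbs1 did not, and no statement on their level is made. In the knockdown 6 genes rose and none fell: Sparc, Olfml3, the integrin genes Itgb1 and Itga6, and the collagen genes Col5a3 and Col8a2. The 6 are 7.5% of the 80, against 4.49% of all tested genes called higher and 5.15% called lower (9.64% in all). In the authors' own processed values, also tested with limma, 6 rose and 1 fell, against 1.81% of all genes called higher and 3.99% lower (5.80% in all). These were not the same 6 genes: Col5a3 did not pass there (adjusted p = 0.0617), and Col20a1 did. Itga6, Col8a2 and Col20a1 each stood at 0.0495 there, close to the threshold. On the normalized intensities 14 were higher and 4 lower at an unadjusted p below 0.05, where 2067 and 2217 of all 17390 tested genes were. The 74 tested genes not called on the normalized intensities lay between -0.12 and 0.30. The median difference of the 80 was 0.0153, against 8.0e-04 over all tested genes. The groups did not overlap for 16 genes that were higher (20%, against 14.5% of all genes) and 5 that were lower (6.25%, against 15.4%). In either direction this held for 29.9% of all genes. Most of these genes were dim: 16 of the 80 (20%) had a raw signal more than 2 times the blank mean on all 6 arrays, against 40.2% of all tested genes.

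**Figure D1:**
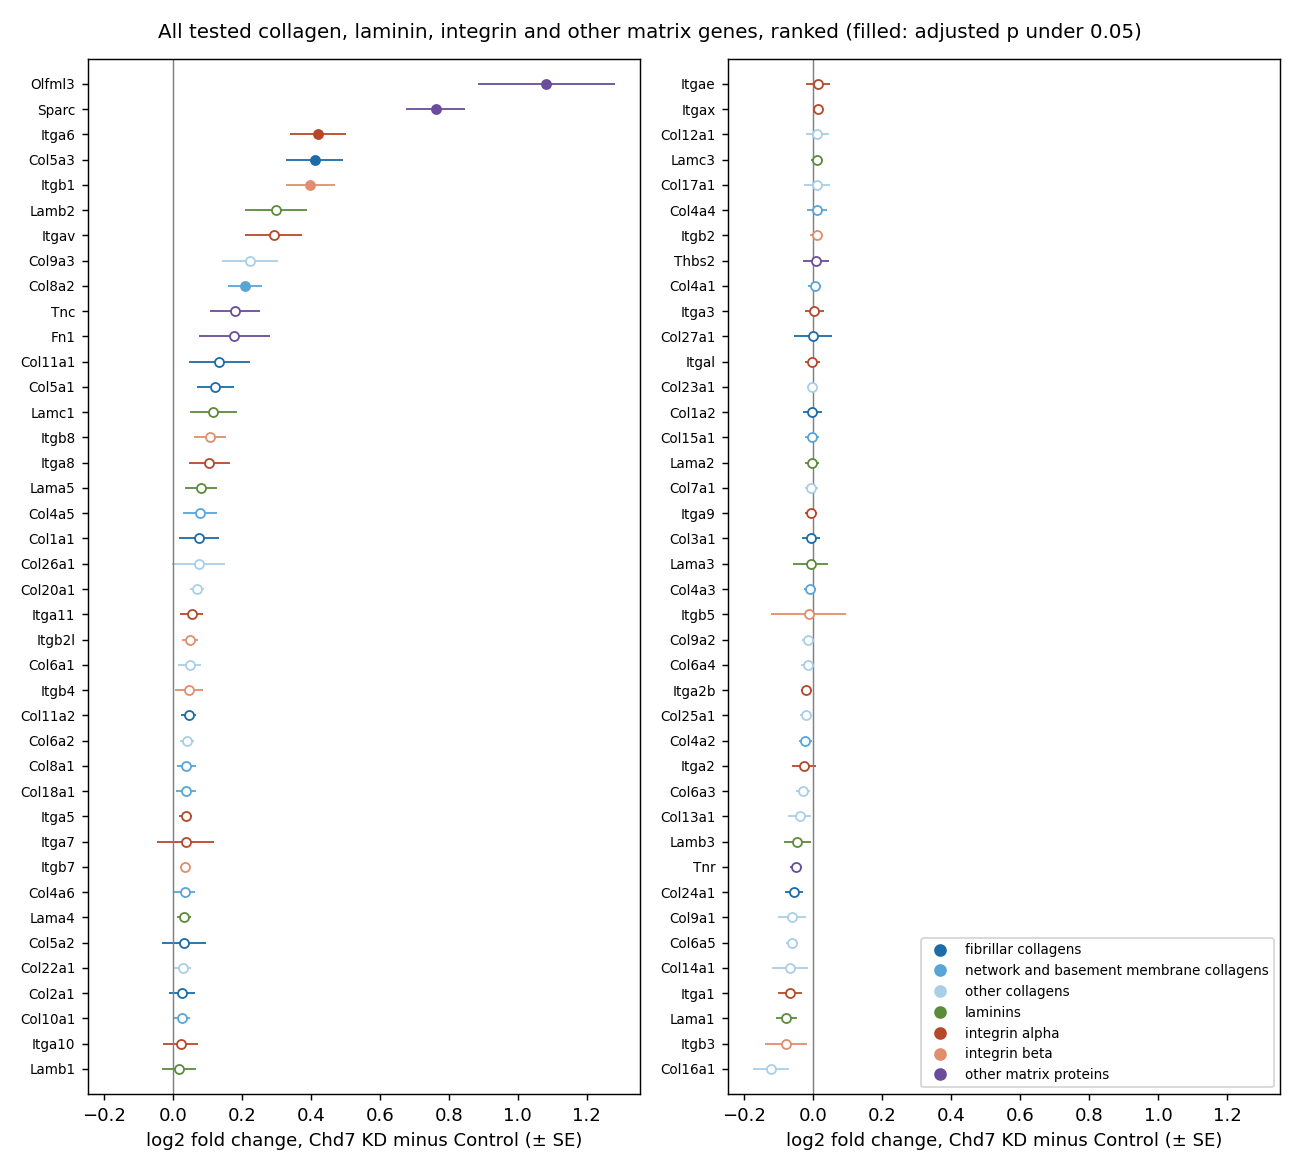
Difference in log2 intensity, knockdown minus control, with its standard error, for each of the 80 tested genes, ranked from the left panel to the right one and coloured by class. Filled points passed the adjusted threshold; 6 genes between 0.21 and 1.08 are filled, and the rest scatter around 0.

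The count and the genes in it changed with the arrays used. Leaving out each array in turn gave 3 to 6 genes that rose, with 3 without knockdown replicate 2, and Itgb1, Olfml3 and Sparc rose in all 6 such fits. Among these fits Itgav rose only without control replicate 3, and Col9a3 only without knockdown replicate 3. With the replicate number as a block 9 rose (7.38% of all genes were then called higher) and 1 fell (7.44% lower). The added genes were Itgav, Lamb2, Tnc and, as the one that fell, Col6a5. The array headers form 2 sets of 3 arrays by the slope between scanner gains, one with 2 control arrays and 1 knockdown array and one with the reverse. Within these sets 1 and 0 of the genes rose.

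The promoters of 5 of the 6 genes that rose are in the RefSeq promoter table (GRCm38.p6) and are shown because these genes were higher in the same samples; Itga6 is named only. Each window holds 250 bases before and 50 after a gene start, 5′ to 3′ on the gene's strand. Capitals mark every match, on either strand and with overlapping copies counted, to TATAAA, known as the TATA box; CCAAT, bound by NF-Y; GGGCGG, the GC box; TGANTCA, the AP-1 site; or ACAAAG, a core bound by SOX proteins. The Sparc window is chr11:55420031-55420330 on the minus strand, Olfml3 chr3:103737952-103738251 minus, Itgb1 chr8:128685404-128685703 plus, Col5a3 chr9:20815018-20815317 minus and Col8a2 chr4:126286544-126286843 plus.
Sparc: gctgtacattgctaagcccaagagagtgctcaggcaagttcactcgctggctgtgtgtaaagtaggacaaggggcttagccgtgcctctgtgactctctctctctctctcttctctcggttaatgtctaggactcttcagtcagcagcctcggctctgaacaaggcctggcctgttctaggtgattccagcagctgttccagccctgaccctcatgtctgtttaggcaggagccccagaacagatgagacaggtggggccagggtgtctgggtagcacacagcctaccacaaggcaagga
Olfml3: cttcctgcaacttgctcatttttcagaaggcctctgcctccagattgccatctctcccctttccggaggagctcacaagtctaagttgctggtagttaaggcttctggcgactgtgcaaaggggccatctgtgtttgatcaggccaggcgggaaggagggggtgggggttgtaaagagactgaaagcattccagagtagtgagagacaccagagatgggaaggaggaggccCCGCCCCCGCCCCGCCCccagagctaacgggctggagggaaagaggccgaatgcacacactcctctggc
Itgb1: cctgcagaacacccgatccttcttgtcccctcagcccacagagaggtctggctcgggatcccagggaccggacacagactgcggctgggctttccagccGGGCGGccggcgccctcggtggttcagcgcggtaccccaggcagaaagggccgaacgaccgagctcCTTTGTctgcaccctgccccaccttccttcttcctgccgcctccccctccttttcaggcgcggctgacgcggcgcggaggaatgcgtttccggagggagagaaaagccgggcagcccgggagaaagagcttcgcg
Col5a3: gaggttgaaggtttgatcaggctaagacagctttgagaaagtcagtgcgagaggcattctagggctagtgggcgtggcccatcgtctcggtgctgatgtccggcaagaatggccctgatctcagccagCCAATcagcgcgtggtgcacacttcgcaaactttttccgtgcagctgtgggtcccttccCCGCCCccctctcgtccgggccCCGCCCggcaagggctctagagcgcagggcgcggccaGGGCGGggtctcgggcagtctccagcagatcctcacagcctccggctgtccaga
Col8a2: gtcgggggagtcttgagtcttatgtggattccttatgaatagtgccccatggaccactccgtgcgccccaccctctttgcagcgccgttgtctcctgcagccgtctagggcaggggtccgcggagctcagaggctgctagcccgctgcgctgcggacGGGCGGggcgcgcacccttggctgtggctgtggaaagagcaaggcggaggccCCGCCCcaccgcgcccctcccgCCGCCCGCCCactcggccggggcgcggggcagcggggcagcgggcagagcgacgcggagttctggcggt

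The windows share no single one of these motifs. The GC box had 3 matches in Olfml3, 1 in Itgb1, 3 in Col5a3 and 4 in Col8a2, and 0 in Sparc. ACAAAG had 1 match, in Itgb1, and CCAAT had 1, in Col5a3. TATAAA and TGANTCA had 0 matches in the 5 windows, which says only that these letters are not there. Across the 63 genes of the set with an entry, 55.6% of windows held GGGCGG, against 35.9% of 27025 windows of all genes. CCAAT was in 25.4% against 37.9%, ACAAAG in 9.52% against 18.7%, TATAAA in 11.1% against 14.2% and TGANTCA in 4.76% against 7.93%. The GC content of the windows was 55.3% for Sparc, 58% for Olfml3, 67.3% for Itgb1, 63.3% for Col5a3 and 71.7% for Col8a2, against a median of 52.7% for all genes. These are counts of letters, with no test.

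The matricellular genes come first by size of change. Sparc encodes a secreted glycoprotein that binds collagen and modulates how cells attach to matrix. Control samples stood at 9.34, 9.52 and 9.51 and knockdown samples at 10.13, 10.18 and 10.34 (log2 intensity, here and later in the order of replicates 1 to 3). Every knockdown sample lay above every control sample, by more than the spread within either group. The means were 9.46 ± 0.0994 and 10.22 ± 0.11 (SD, n = 3 each), a rise of 0.76 (SE 0.0849, adjusted p = 0.00174), or 1.70-fold. In the authors' processed values, which are linear, Sparc stood at 457, 526 and 545 in control and at 846, 825 and 902 in knockdown samples. Sparc rose in each fit with 1 array left out (0.70 to 0.81), and its difference was 0.75 and 0.73 within the 2 gain sets, where it did not pass (adjusted p = 0.133 and 0.104).

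Olfml3 encodes a secreted olfactomedin-domain protein of the matrix. It stood at 6.69, 6.75 and 6.60 in control and at 8.28, 7.73 and 7.28 in knockdown samples. The groups did not overlap, and knockdown replicate 1 stood highest, so that the spread was 0.499 (SD, n = 3) in the knockdown and 0.0736 (SD, n = 3) in the control. The rise was 1.08 (SE 0.199, adjusted p = 0.0117), or 2.12-fold on this scale. Without knockdown replicate 1 it was 0.83, and without knockdown replicate 3 it was 1.32. The authors' values were 40, 42 and 34 for control and 202, 119 and 76 for knockdown samples. Raw control signals of this probe were 108, 115.2 and 105.3, below 2 times the blank mean.

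A second probe annotated as Olfml3, for which the annotation gives no transcript accession, did not show the change. It stood at 6.21, 6.30 and 6.20 in control and at 6.24, 6.24 and 6.22 in knockdown samples, with overlapping groups and a difference of -0.0046. The rise of Olfml3 therefore stands on 1 probe. Of the 11 genes with more than 1 probe, 9 had a second tested probe, and 3 of these 9 second probes shared the sign of the first. For Itgav both probes were higher in the knockdown, and 1 second probe, that of Itgav, passed the threshold over all probes.

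**Figure D2:**
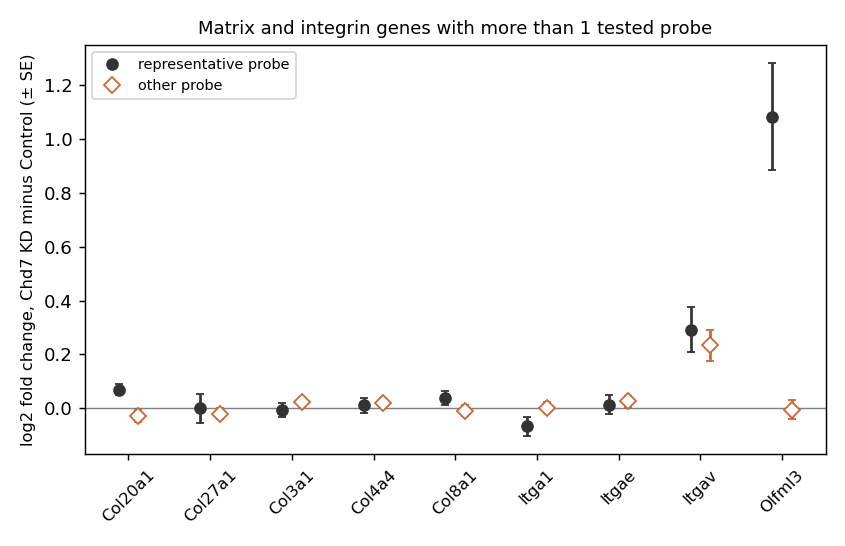
Difference in log2 intensity, knockdown minus control, with its standard error, for the 9 genes with more than 1 tested probe, from the fit over all probes. Filled circles are the brighter probe, open diamonds the other; the Olfml3 probes differ (1.08 and -0.0046), the Itgav probes are both above 0 (0.29 and 0.23), and all other probes lie between -0.07 and 0.07.

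Olfml3 is also known as a gene of microglia and Sparc of several non-neuronal cells, so markers of other cell types were read beside them. Of 10 microglia and macrophage markers 10 were tested and none changed in limma (0 at an unadjusted p below 0.05), with a median difference of 0.028. Their summed intensity was 695 to 713 in controls and 710 to 731 in the knockdown, and 7 lay above the limit on all arrays. Of 8 endothelial markers 5 were tested and none changed (335 to 351 against 333 to 363, with 0 at an unadjusted p below 0.05), while Pecam1, Cldn5 and Tek were not above the limit on at least 3 arrays. In both lists 0 tested markers had a raw signal more than 2 times the blank mean on all 6 arrays. Changes this near the blank spots are compressed and could be missed. Differences were above 0 for 9 of the 10 microglia and all 5 endothelial markers (all genes: 8806 of 17390). Of 12 markers of pericytes, smooth muscle and fibroblasts 11 were tested and 1, Vtn, which encodes vitronectin, rose by 0.10. At an unadjusted p below 0.05, 4 of these 11 were higher and 0 lower (all genes: 2067 and 2217 of 17390). Of these markers 4 (36.4%, against 14.5% of all genes) had all knockdown samples above the controls. For 1 marker (9.09%, against 15.4%) all lay below. Their summed intensity was 917 to 960 in controls and 974 to 1031 in the knockdown, ranges that did not overlap, and Kcnj8 was not above the limit. Of 8 astrocyte markers none was called changed, with differences from -0.47 to 0.24. Their summed intensity was lower in the knockdown (12169 to 12947 in controls against 11454 to 11573), ranges that did not overlap. At an unadjusted p below 0.05, 1 was higher and 2 lower. None of 6 tested oligodendrocyte markers changed either (1236 to 1636 against 1181 to 1593; 1 higher and 0 lower). Of 8 neuronal markers Map2 fell by 0.12 (667 to 739 against 653 to 719). The replicate block changed these marker counts: 3 pericyte, smooth muscle and fibroblast markers and 2 oligodendrocyte markers rose, 1 astrocyte marker rose and 1 fell, and 1 neuronal marker rose and 2 fell. With it 6 precursor markers fell, and no microglia or endothelial marker passed. Of all genes 4.49% were called higher and 5.15% lower without the block, and 7.38% and 7.44% with it. The part of any of these cell types, or of the lower precursor markers, in the changes of matrix genes was not tested.

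**Figure D3:**
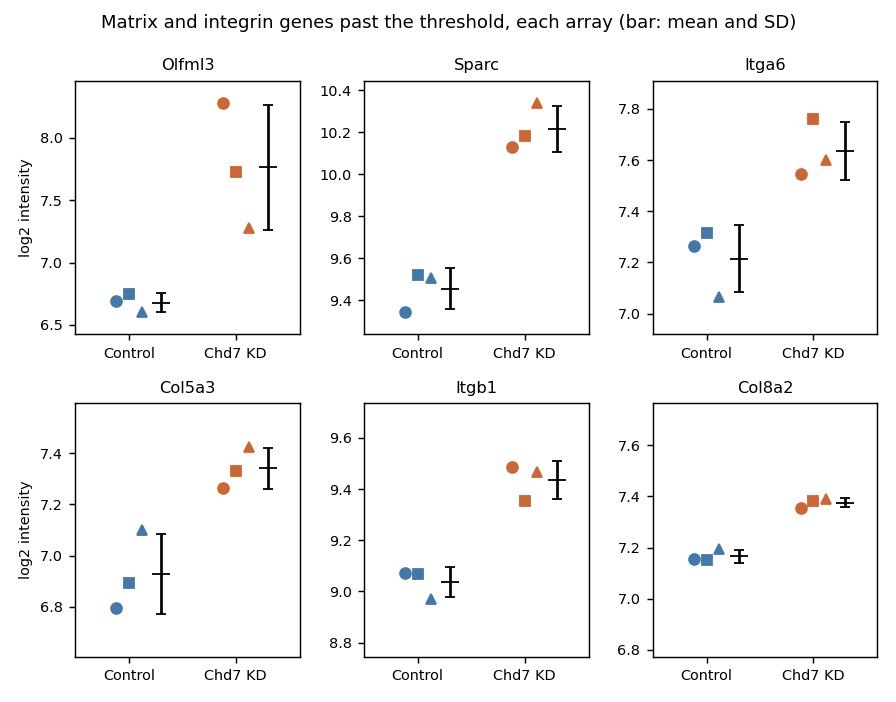
Log2 intensity of the 6 genes that rose, on each array (circle, square and triangle: replicates 1, 2 and 3), with the mean and SD of each group. Each panel has its own axis; in all 6 panels the knockdown samples lie above the control samples, and Olfml3 has the widest spread within the knockdown group.

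The other named matrix genes did not pass. Tnc, which encodes tenascin-C of the embryonic and reactive matrix, stood at 6.76, 6.68 and 6.88 in control and at 6.97, 6.83 and 7.06 in knockdown samples. The groups overlapped, with knockdown replicate 2 below control replicate 3. The difference was 0.18 (SE 0.0725, adjusted p = 0.164), and blocking on the replicate number gave an adjusted p of 0.0306. Tnc did not pass in the authors' values (0.276), with median scaling (0.19) or with any 1 array left out (0.107 to 0.396). Fn1, fibronectin, an integrin ligand of provisional matrix, read 6.71, 7.08 and 6.98 against 7.0, 7.28 and 7.03, a difference of 0.18 (SE 0.103, adjusted p = 0.336) with control replicate 1 lowest. Tnr, tenascin-R of perineuronal matrix, lay close to the blank spots and read -0.05 (adjusted p = 0.139) with groups that did not overlap. Thbs2, thrombospondin 2, a glial synapse-promoting protein, read 0.0088 (SE 0.0371).

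Among integrins 23 of 26 genes were tested, and 2 rose (8.7%, against 4.49% of all genes). Itgb1 encodes the beta1 chain, which pairs with most matrix-binding alpha chains. It stood at 9.07, 9.07 and 8.97 in control and at 9.49, 9.35 and 9.47 in knockdown samples. All knockdown samples lay above all controls, and the rise was 0.40 (SE 0.071, adjusted p = 0.0102), or 1.32-fold. It was 0.36 to 0.44 with 1 array left out and passed each time, but not with median scaling (adjusted p = 0.0624).

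Itga6 encodes the alpha6 chain, which forms a laminin receptor with beta1 or beta4. It stood at 7.27, 7.31 and 7.07 in control and at 7.55, 7.76 and 7.60 in knockdown samples. The groups did not overlap, and control replicate 3 was the lowest sample. Itga6 rose by 0.42 (SE 0.0823, adjusted p = 0.0152), or 1.34-fold. The call was lost without knockdown replicate 2 (adjusted p = 0.0551). The other partner, Itgb4, read 0.05 (adjusted p = 0.537).

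Itgav encodes the alphav chain, which pairs with beta1, beta3, beta5, beta6 or beta8. Its brighter probe stood at 8.63, 8.78 and 8.89 in control and at 9.13, 9.05 and 9.0 in knockdown samples, and the dimmer probe 6.59, 6.37 and 6.52 against 6.70, 6.76 and 6.71. On both probes the groups did not overlap. The brighter probe, by which the gene was tested, gave 0.29 (SE 0.0824, adjusted p = 0.0577), and with the replicate number as a block 0.0426. It did not pass in the authors' values (0.226), with median scaling (0.205) or without both arrays numbered 1 (0.232). With 1 array left out it passed only without control replicate 3 (0.0473). The dimmer probe gave 0.23 (adjusted p = 0.0385 over all probes).

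The beta chains that pair with alphav did not pass apart from Itgb1. Itgb5 read -0.01 (SE 0.108), with 9.33, 9.21 and 8.98 in control and 9.26, 9.23 and 8.99 in knockdown samples, so both arrays numbered 3 were lowest in their group. Itgb3 read -0.08 (SE 0.0605) and Itgb8 0.11 (SE 0.0467, adjusted p = 0.194). Of the 15 alpha chains tested, Itga6 passed, and the other 14 lay between -0.07 and 0.29. Among the laminin receptors of these, Itga3 read 0.003 and Itga7 0.04 (SE 0.0814). Of the 8 beta chains tested, 7 did not pass and lay between -0.08 and 0.11. Itga3, Itga7, Itgb3, Itgb4 and Itgb8 were named with their values known.

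The collagen-binding alpha chains did not pass. Itga1 read -0.07 (SE 0.0347, adjusted p = 0.276), the one integrin whose knockdown samples all lay below the controls. This held on 1 of its 2 tested probes. The other Itga1 probe read 0.0023, with overlapping groups. Itga2 read -0.03, Itga10 0.02 and Itga11 0.05, the last with all knockdown samples above the controls. Of the chains that bind fibronectin and related ligands, Itga5 read 0.04 (SE 0.0183, adjusted p = 0.251) with groups that did not overlap, at a raw signal of 63.9 to 68.1 close to the blank spots, and Itga8 read 0.11 (SE 0.0595) with overlapping groups. The leukocyte chains Itgal, Itgax and Itgb2 and the platelet chain Itga2b, with raw signals close to the blank spots, lay between -0.02 and 0.01, and Itgb7 read 0.03 (SE 0.0144) with groups that did not overlap. The collagen-binding, fibronectin-binding leukocyte and platelet chains were named with their values known.

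Of the 43 collagen genes 41 were tested and 2 rose (4.88%, against 4.49% of all genes), a share close to that of all genes. Col5a3 encodes the alpha3 chain of type V collagen, a minor fibrillar collagen that sits within type I fibrils. It stood at 6.80, 6.89 and 7.10 in control and at 7.26, 7.33 and 7.43 in knockdown samples. The groups did not overlap, and control replicate 3 stood closest to the knockdown samples. The rise was 0.41 (SE 0.0819, adjusted p = 0.0162), or 1.33-fold. It lost its call when control replicate 2, knockdown replicate 2 or knockdown replicate 3 was left out (highest adjusted p 0.0607) and in the authors' values (0.0617). Within the gain sets the difference was 0.49 and 0.24. The raw signal of Col5a3 in control replicate 1, 115.1, lay below 2 times the blank mean, and above it on the other arrays.

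Col8a2 encodes a chain of type VIII collagen, a short-chain collagen of hexagonal networks. It stood at 7.15, 7.15 and 7.19 in control and at 7.36, 7.38 and 7.39 in knockdown samples. The difference was small beside that of the other genes that rose, 0.21 (SE 0.0489, adjusted p = 0.0293), or 1.16-fold, and both groups were tight (SD 0.0242 and 0.0187). Leaving out any 1 of the 6 arrays ended the call (adjusted p 0.0538 to 0.100), as did median scaling (0.0787), the gain set as a block (0.0662) and leaving out both arrays numbered 1 (0.0973).

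The remaining fibrillar collagens did not pass. Type V partners of Col5a3 read 0.12 for Col5a1 (SE 0.0531, adjusted p = 0.192, groups not overlapping) and 0.03 for Col5a2. Col11a1, of the related type XI, read 0.13 (SE 0.0881). The chains of types I and III, the main fibrillar collagens of connective tissue, read 0.08 for Col1a1, -0.0024 for Col1a2 and -0.0064 for Col3a1. Their raw signals lay below 2 times the blank mean. Col27a1 read 2.0e-04 (SE 0.0546).

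Of the 11 network-forming and basement membrane collagens Col8a2 rose. Col4a1 and Col4a2, which form the common type IV heterotrimer, start 21 bases apart in opposite directions in RefSeq (GRCm38.p6), and their differences were 0.0048 (SE 0.0193) and -0.02 (SE 0.02). Their raw signals, 67.6 to 72.5 and 66.8 to 70.9, lay close to the blank spots, where changes are compressed. Col4a5 read 0.08 (SE 0.0491) with groups that did not overlap. Of the 19 other collagens tested 2 were higher and 2 lower at an unadjusted p below 0.05 (all genes: 2067 and 2217 of 17390). None of the 19 passed the adjusted threshold. Col9a3, a chain of the fibril-associated type IX, had the highest value of these at 0.22 (SE 0.0801, adjusted p = 0.121). It stood at 7.55, 7.53 and 7.52 in control and at 7.91, 7.79 and 7.59 in knockdown samples, groups that did not overlap, with knockdown replicate 3 close to the controls. Its partners in type IX read -0.06 for Col9a1 and -0.01 for Col9a2. Col14a1 read -0.07 (SE 0.0513).

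The chains of type VI collagen, a microfibrillar collagen of many tissues, read 0.05 for Col6a1, 0.04 for Col6a2 and -0.03 for Col6a3. All knockdown samples of Col6a2 lay above the controls (5.92, 5.93 and 5.95 against 5.96, 5.97 and 5.99), and the difference did not pass (SE 0.0195, adjusted p = 0.242). Col16a1, a fibril-associated collagen, had the lowest value of the whole set at -0.12 (SE 0.0522, adjusted p = 0.192). It stood at 6.72, 6.89 and 6.79 in control and at 6.66, 6.68 and 6.69 in knockdown samples, which did not overlap. Col20a1 read 0.07 (adjusted p = 0.0732) and passed in the authors' values (0.0495). Its second probe read -0.03. The basement membrane zone collagens Col15a1 and Col18a1 read -0.0032 and 0.04.

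Col6a5, a further type VI chain, lay at the dim end of the scale. Its raw signal was 62.7 to 66.4 in controls and 62.5 to 64.1 in the knockdown, and the groups of normalized values did not overlap (difference -0.06, adjusted p = 0.0523). Its adjusted p was 0.0492 with the replicate block, 0.046 in the authors' values and 0.0451 without control replicate 2, and it also passed with an offset of 16 and with a filter on all 6 arrays. In the authors' values it stood at 4, 3 and 4 against 2, 2 and 2, which are rounded units close to their lowest value. The type VI genes, Col15a1, Col16a1, Col18a1, Col20a1, Col5a1, Col5a2, Col11a1, Col1a1, Col1a2, Col3a1, Col4a1, Col4a2, Col9a1 and Col9a2 were chosen after their values were seen.

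All 10 laminin genes were tested and none changed. At an unadjusted p below 0.05, 1 was higher and 1 lower (all genes: 2067 and 2217 of 17390). With the replicate block 1 rose, against 7.38% of all genes. Lamb2, the beta2 chain of synaptic and vascular laminins, stood at 8.60, 8.59 and 8.54 in control and at 8.82, 9.07 and 8.73 in knockdown samples. The groups did not overlap, and the control values were closer together (SD 0.0311) than those of the knockdown (SD 0.177). The difference was 0.30 (SE 0.0907, adjusted p = 0.0727). It passed with the replicate number as a block (adjusted p = 0.028) and with the gain set as a block (0.0396). It did not pass in the authors' values (0.176), with median scaling (0.100) or without both arrays numbered 1 (0.149). Nor did Lamb2 pass with any 1 array left out (0.0603 to 0.194).

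The alternative beta chain Lamb1 read 0.02 (SE 0.049) and Lamb3, of epithelial laminin, -0.05 (SE 0.0385). The gamma chains read 0.12 for Lamc1 (SE 0.0684, adjusted p = 0.341) and 0.01 for Lamc3. Of the 5 alpha chains, Lama5, of the laminins in most adult basement membranes, read 0.08 (SE 0.046), and Lama3 read -0.007. Lama2 and Lama4, whose laminins occur in muscle, glial and vascular basement membranes, read -0.0035 and 0.03. Lama1, of embryonic laminin, read -0.08 (SE 0.0302, adjusted p = 0.151) with groups that did not overlap. Lama1, Lama2, Lama4 and Lamb3 were chosen after their values were seen.

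Genes that act with the matrix and with integrins were read from 6 lists. Of 29 tested genes of the integrin adhesion machinery 4 rose, 1 fell and 24 did not pass (median difference 0.03), where 4.49% of all genes rose and 5.15% fell. Vcl, vinculin, which links talin to actin, rose by 0.50 (SE 0.0889, adjusted p = 0.00978), and Tln1, talin, which activates integrins at the beta tail, by 0.34 (SE 0.0762, adjusted p = 0.0243). Bcar1, the p130Cas adaptor phosphorylated at adhesions, rose by 0.45 (SE 0.0591, adjusted p = 0.00313). Fermt2, kindlin-2, the partner of talin on the beta tail, rose by 0.26 (adjusted p = 0.0469). Lims2, the PINCH2 adaptor that binds integrin-linked kinase, fell by 0.95 (SE 0.119, adjusted p = 0.00244) to 6.36 ± 0.128 from 7.31 ± 0.261 (SD, n = 3 each).

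Vcl did not pass in the authors' values (adjusted p = 0.0529) or without both arrays numbered 1 (0.0613), Tln1 when control replicate 2 or 3 or any knockdown replicate was left out (up to 0.0872) or in the authors' values (0.0625), and Fermt2 when any 1 array was left out (up to 0.146). With 1 array left out 2 or 3 of the list rose, 3 without control replicate 1 and 2 without any other array, and 1 rose in the authors' values. The replicate block gave 4 that rose and 2 that fell (7.38% and 7.44% of all genes).

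Of 25 tested matrix proteases and their inhibitors 5 rose and 3 fell (median 0.06). Shares over all genes were 4.49% higher and 5.15% lower. Adam12, a metalloprotease whose disintegrin domain can bind integrins, rose by 0.81 (SE 0.0815, adjusted p = 0.00123) on the probe by which it was tested. A second tested Adam12 probe with the same transcript accession read 0.06 (SE 0.0548, adjusted p = 0.57 over all probes). That probe stood at 7.36, 7.25 and 7.23 in control and at 7.33, 7.32 and 7.36 in knockdown samples, which overlapped, so the rise of Adam12 stands on 1 probe. In controls the second probe was the brighter one (mean 7.28 against 6.97), so the knockdown values decided which probe was tested. The count of 5 that rose includes Adam12 on the probe chosen in this way. The inhibitor genes Timp4, Timp2 and Timp1 rose by 0.46, 0.26 and 0.25 and the gelatinase gene Mmp2 by 0.22. The aggrecanase gene Adamts5 fell by 0.20 (SE 0.0247, adjusted p = 0.00228), and the membrane-anchored Mmp17 and Mmp16 by 0.23 and 0.35. Adamts5 was dim, with raw signals of 75.9 to 79.9 in control and 69.7 to 70.7 in knockdown samples. The size of its fall depended on the scale. In the authors' values it stood at 14, 13 and 15 against 7, 8 and 6, a log2 difference of -0.91. Adam12 and Adamts5 passed with any 1 array left out. The others did not, with 1 to 5 that rose (1 without knockdown replicates 1 or 2, 2 without control replicate 2, 3 without control replicate 3) and 1 to 4 that fell (1 without control replicate 2 or knockdown replicates 1 or 2). Timp4 also did not pass in the authors' values (adjusted p = 0.0659), where 2 rose and 2 fell. Without both arrays numbered 1, 2 rose and 1 fell.

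Of 25 collagen processing genes 3 rose and 1 fell (median 0.03), against 4.49% and 5.15% of all genes. Plod2, the lysyl hydroxylase of collagen telopeptides, fell by 0.40 (SE 0.0582, adjusted p = 0.0046) and passed with any 1 array left out. Pcolce, an enhancer of procollagen C-proteinase, rose by 0.22 (adjusted p = 0.022), the collagen galactosyltransferase gene Colgalt1 by 0.33 (0.0479) and the prolyl 3-hydroxylase gene P3h2 by 0.08 (0.0486). In the authors' values, without both arrays numbered 1, and without control replicate 2 or knockdown replicates 1 or 3, 0 of the list rose. The replicate block gave 5 that rose and 2 that fell, against 7.38% and 7.44% of all genes.

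Of 17 basement membrane partners 2 rose and 2 fell (median 0.0085; all genes 4.49% and 5.15%). Ntn4, the laminin-binding netrin-4, rose by 0.32 (SE 0.056, adjusted p = 0.00978) and Smoc1, a calcium-binding glycoprotein gene, fell by 0.46 (SE 0.0806, adjusted p = 0.00929), and both passed with any 1 array left out. Hspg2, perlecan, rose by 0.16 (adjusted p = 0.0221) and was lost without any array but control replicate 1 (up to 0.0865). Smoc2 fell by 0.10 (0.022) and was lost without control replicate 2 or any knockdown replicate (up to 0.0776). Pxdn, the peroxidase that crosslinks type IV collagen, read 0.15 (adjusted p = 0.154).

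Of 19 matrix proteoglycans and link proteins 2 were higher and 3 lower at an unadjusted p below 0.05 in limma (median -0.0038). Of all 17390 genes 2067 and 2217 were. Where 4.49% of all genes rose and 5.15% fell, none of the list rose and 1 gene fell. It was Cspg4, which encodes the NG2 proteoglycan and is also a precursor marker (-0.48, SE 0.0414, adjusted p = 7.1e-04). Ogn read 0.27 (adjusted p = 0.0518), Hapln3 -0.25 (0.0629) and Prelp -0.07 (0.0885). Both Ogn (0.00144) and Hapln3 (0.0407) passed with the replicate block. Ogn also passed with median scaling (0.0243), without both arrays numbered 1 (0.025) and without knockdown replicate 1. Hapln3 passed with median scaling (0.0384).

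Of 25 non-integrin matrix receptors 3 rose and 1 fell (median 0.04), beside 4.49% and 5.15% of all genes. Cd93, a transmembrane lectin-like receptor gene, rose by 0.28 (SE 0.0411, adjusted p = 0.00459) and passed with any 1 array left out. The scavenger and thrombospondin receptor gene Cd36 rose by 0.31 (adjusted p = 0.0189) and the glypican gene Gpc4 by 0.35 (0.028) on 1 of 2 tested probes, while Cd47, which binds thrombospondin and associates with integrins, fell by 0.33 (0.0419). The other Gpc4 probe read 0.11 (adjusted p = 0.37 over all probes), with overlapping groups. Cd36, Gpc4 and Cd47 did not pass in the authors' values (0.0634, 0.132 and 0.0584) or without both arrays numbered 1. Without control replicate 2 or knockdown replicate 1, 1 of the list rose. When control replicate 2 or 3 or knockdown replicate 1 or 2 was left out, 0 fell. Of the list 5 rose and 1 fell with the replicate block (all genes 7.38% and 7.44%). Fermt2, Timp1, Timp2, Mmp2, Mmp16 and Pxdn were named after their values were seen.

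**Figure D4:**
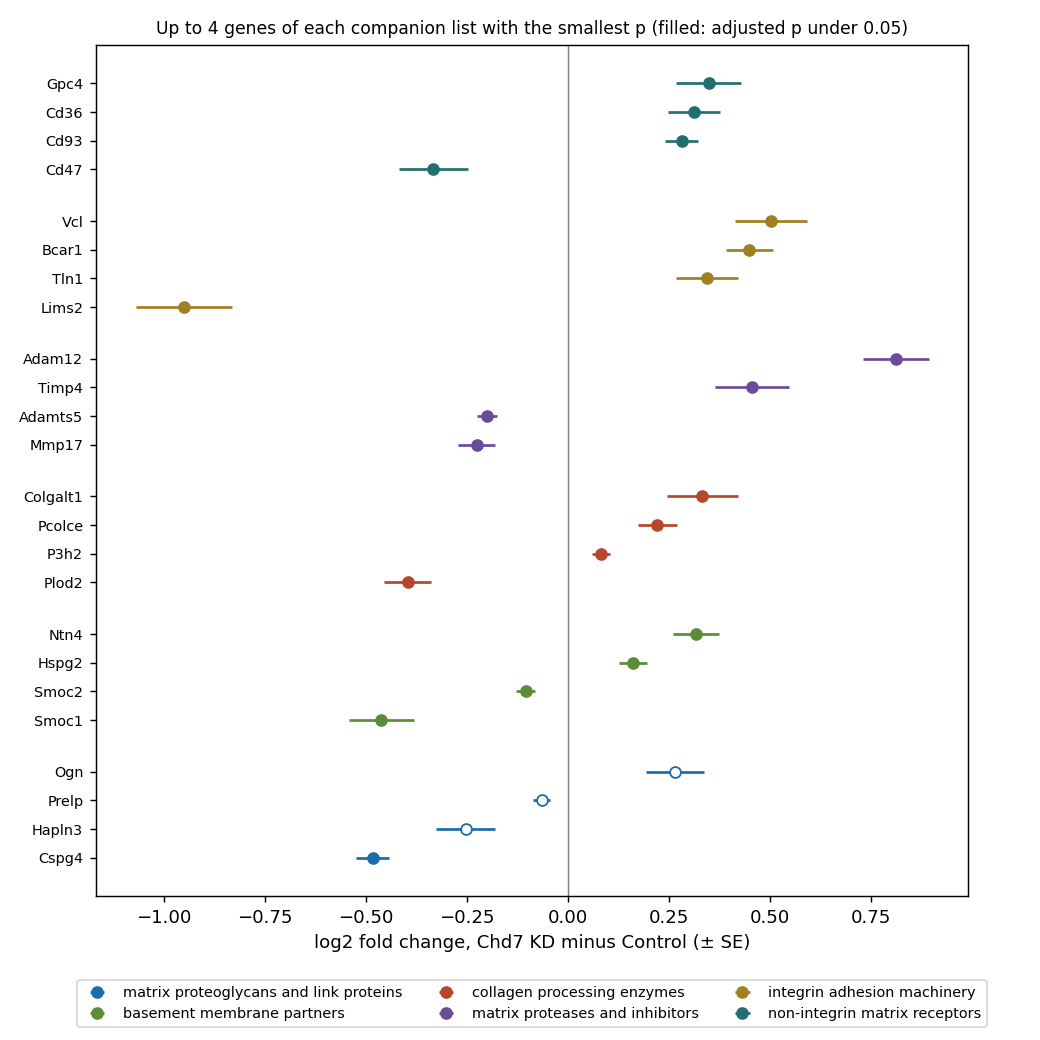
Difference in log2 intensity, knockdown minus control, with its standard error, for the up to 4 genes of smallest p in each of the 6 lists, coloured by list. Filled points passed the adjusted threshold; Lims2 has the largest fall among those plotted (-0.95) and Adam12 the largest rise (0.81), on 1 of its 2 tested probes; the other, not plotted, read 0.06.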

How the data were processed

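RNA labelled with Cy5 was hybridised to TORAY arrays, per the labels' protocols. The deposited intensity is each spot's median at 635 nm, for which 3 scanner gains were combined by a least-squares line, per the file headers. The local background followed the spot signal (correlation of logs 0.959 to 0.983) and was not used. The authors' second intensity table was found to be spot signal less about the blank mean, scaled to a median of 25, and no source states this.

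Intensities were corrected with normexp (offset 50), quantile normalized, averaged per probe and tested in limma 3.58.1 (statmod 1.5.0, R 4.3.3; lmFit, eBayes with a trend, two-sided). The offset shrinks changes of dim genes. Of 23473 probes 2783 had no symbol here, and 1 probe bad at every gain was left out. Each gene was tested by its brightest probe on average over all 6 arrays, knockdown included. Figures used matplotlib 3.10.9.

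The genes and lists were chosen with earlier results of these data known. Named genes were Chd7, collagen, laminin, integrin and matrix genes past the threshold, the 7 matrix genes, the 2 brightest of each class and up to 4 of smallest p per companion list. A further 24 genes, picked with their values known, are among the 71 tested under the alternatives. Other genes named outside these rules were also picked with their values known. The labels number replicates 1 to 3 in both groups; same-numbered deviations correlated at 0.36, 0.38 and 0.23, so the numbers may pair samples, which is inferred from the data. Header slopes between gains formed 2 sets of arrays (0.464 to 0.467, and 0.478 to 0.479). Alternatives changed the background, scaling, filter, variance model, blocks and arrays, or used log2 of the authors' values plus 1. The procedure was tested on simulated data drawn from brighter probes only. That test does not cover dim genes, such as most of those described here.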

Additional observations from a re-analysis of the deposited data

How the results depend on the processing

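Of 71 named genes under 21 alternatives, 1273 of 1490 comparisons stayed on the same side of the threshold. These include uncalled genes whose sign changed. A call was lost in 198 comparisons and gained in 19, and 0 reversed a called direction. Over all genes 781 rose and 896 fell. In the authors' values 313 rose, 31.1% of calls against 46.6%. Without both arrays numbered 1, 378 rose and 422 fell, and within the 2 gain sets 24 and 10 rose and 15 and 29 fell. Without each array in turn 355 to 681 rose and 395 to 772 fell. With the replicate number as a block 1284 rose. Of the matrix and integrin genes 1 and 0 rose within the gain sets, and 3 to 6 with 1 array left out. The number that fell, 0, was 1 with an offset of 16, in the authors' values, with a filter on all 6 arrays and with the replicate block, and 0 to 1 with 1 array left out. Among collagen, laminin, integrin and named matrix genes the block changed no other call than those of Itgav, Lamb2, Tnc and Col6a5. The cause of these differences was not tested. Where a gain set leaves 1 array in a group, its spread is taken from the other group. Signal over background limits the genes near the blank spots, where changes are compressed. No scaling moved the median of all genes by over 0.1.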
